A study of Mus musculus with 16 samples.

Results

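The tight junction genes described here are 7 claudin genes (Cldn1, Cldn3, Cldn4, Cldn7, Cldn8, Cldn12 and Cldn23), the occludin gene Ocln and Tjp1, which encodes the plaque protein ZO-1. They were taken by gene symbol from a table of 45777 mouse genes, and all 9 were found. Transcripts were measured by sequencing of polyA RNA from ear skin of wild-type C57BL/6 mice in 6 libraries. The 3 anti-OSM libraries came from mice given an antibody against oncostatin M, a cytokine of the IL-6 family, injected into the ear skin at 20 µg per mouse every other day. The 3 anti-Ly6G libraries came from mice given an antibody against Ly6G, a surface protein of neutrophils, given into the peritoneum as doses of 200 µg per mouse, the first 2 days ahead of MC903 and the others 1 and 4 days after it. Ears of both groups received 50 µM MC903 in 20 µL of ethanol daily for 10 days. MC903 (calcipotriol) is a synthetic relative of vitamin D, and painting it on mouse ears is a common model of atopic dermatitis. The labels name no isotype antibody, age, sex or batch for these groups, and antibody, route and schedule differed together. The 10 libraries of control ears and of ears given MC903 with ovalbumin were not analysed here, so no level below can be set against untreated skin.

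Tight junctions seal the space between neighbouring epithelial cells, and in the epidermis they lie in the granular layer beneath the cornified envelope. Claudins are the membrane proteins that form the strands: their outer loops meet those of the next cell, and which claudins are present sets which ions and solutes can pass. Occludin joins the same strands, and ZO-1 ties the cytoplasmic tails of most claudins to actin. Mice without Cldn1 die soon after birth from loss of water through the skin, and in human atopic dermatitis lower CLDN1 and CLDN23 have been described.

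Cldn4 and Cldn3 lie on chromosome 5 with 39279 bases between them, and these neighbours differed widely in level, as given below. Cldn4 was also the gene of the 9 with the smallest p between the groups. The 250 bases before the start of each gene are therefore shown, with those of Cldn1, the most abundant of the 9 (RefSeq, GRCm38.p6, each written 5′ to 3′ on the strand of its gene). They are chr5:134946935-134947184 on the minus strand for Cldn4, chr5:134985964-134986213 on the plus strand for Cldn3 and chr16:26371840-26372089 on the minus strand for Cldn1. Capitals mark matches to the 4 motifs searched on both strands.
Cldn4: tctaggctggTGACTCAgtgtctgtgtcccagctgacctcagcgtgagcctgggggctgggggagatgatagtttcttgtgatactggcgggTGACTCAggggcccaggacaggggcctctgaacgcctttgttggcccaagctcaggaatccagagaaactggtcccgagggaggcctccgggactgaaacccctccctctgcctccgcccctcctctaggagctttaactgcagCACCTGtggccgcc
Cldn3: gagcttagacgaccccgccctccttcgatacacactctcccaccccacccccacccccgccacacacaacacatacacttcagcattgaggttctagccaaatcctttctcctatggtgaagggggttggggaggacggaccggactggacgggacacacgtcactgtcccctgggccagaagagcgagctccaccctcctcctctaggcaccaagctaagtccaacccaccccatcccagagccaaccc
Cldn1: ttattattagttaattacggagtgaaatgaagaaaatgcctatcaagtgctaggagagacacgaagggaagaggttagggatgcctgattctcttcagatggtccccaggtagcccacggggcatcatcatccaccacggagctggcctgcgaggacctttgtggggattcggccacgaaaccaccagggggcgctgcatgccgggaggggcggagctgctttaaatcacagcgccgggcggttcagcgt
The motifs were the STAT palindrome TTCNNNGAA, the AP-1 motif TGANTCA, the GRHL motif AACNNGTT and the Snail E-box CACCTG, and no match overlapped another. The Cldn4 window held TGACTCA at 240 and at 158 bases before the start, and CACCTG at 14 bases before it. Of 27025 promoter windows of the same length, 6.87% held the AP-1 motif, 0.326% held at least 2 matches to it, 17.1% held the E-box, 7.18% the STAT palindrome and 3.63% the GRHL motif. Of the 9 genes, 7 had an entry, Cldn8 and Cldn23 had none, and Cldn4 was the 1 gene with a match. The Tjp1 window (chr7:65371245-65371494, minus strand) lies inside the span given for that gene, before an internal start. A match is a description of the letters and not of binding.

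Levels of different genes were compared in the deposited TPM, which scales for gene length and library. Cldn1 (gene ID 12737, chromosome 16, 26356645 to 26371839), the main barrier claudin of epidermis, had 164, 176 and 178 TPM with anti-OSM and 159.9, 175 and 163 TPM with anti-Ly6G. Cldn4 (gene ID 12740, chromosome 5, 134945123 to 134946934), a claudin of the upper epidermal layers, had 82.3, 83.3 and 86.7 TPM with anti-OSM and 104, 119 and 90.5 TPM with anti-Ly6G. Tjp1 (gene ID 21872, chromosome 7, 65296165 to 65527850) had 28.2, 29.2 and 29.4 TPM with anti-OSM and 31.4, 36.3 and 32.0 TPM with anti-Ly6G. These 3 genes stood apart from each other and from the rest in every library. Of them Cldn4 and Tjp1 did not overlap between the groups, while Cldn1 did. In read counts scaled by library, 35.0% of all genes tested did not overlap, 17.7% higher and 17.3% lower with anti-OSM.

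Below them came Cldn12, Cldn23 and Ocln at about an order of magnitude less than Cldn1. Cldn12 (gene ID 64945, chromosome 5, 5505015 to 5514976), which in the intestine takes part in calcium passage between cells, had 15.3, 16.6 and 15.9 TPM with anti-OSM and 17.6, 20.3 and 17.9 TPM with anti-Ly6G. Cldn23 (gene ID 71908, chromosome 8, 35824709 to 35826559) had 12.5, 14.99 and 11.6 TPM with anti-OSM and 12.02, 15.7 and 9.34 TPM with anti-Ly6G. Ocln (gene ID 18260, chromosome 13, 100496504 to 100552718) had 11.5, 10.9 and 10.1 TPM with anti-OSM and 9.55, 11.8 and 10.0 TPM with anti-Ly6G. The ranges of Cldn12 and Cldn23 overlapped over the 6 libraries, although Cldn12 was above Cldn23 in each of the 6. The ranges of Cldn23 and Ocln also overlapped, with Cldn23 above Ocln in 5 of 6 libraries, so the order of those neighbours rests on small differences.

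The remaining claudins were scarce. Cldn8 (gene ID 54420, chromosome 16, 88560826 to 88563183), best known as a sealing claudin of the kidney's distal tubules, had 3.47, 4.02 and 2.19 TPM with anti-OSM and 1.91, 2.61 and 2.32 TPM with anti-Ly6G. Cldn3 (gene ID 12739, chromosome 5, 134986214 to 134987476), a barrier claudin of simple epithelia, had 1.59, 1.86 and 1.11 TPM with anti-OSM and 1.66, 2.14 and 1.72 TPM with anti-Ly6G. Cldn7 (gene ID 53624, chromosome 11, 69964779 to 69967886), a partner of EpCAM in simple epithelia, had 0.232, 0.0936 and 0.139 TPM with anti-OSM and 0.242, 0.0558 and 0.227 TPM with anti-Ly6G. Cldn8 and Cldn3 overlapped in range, while Cldn7 lay below both in every library. The neighbours on chromosome 5 thus differed by a TPM ratio of Cldn4 to Cldn3 of 58.2 ± 17.5 with anti-OSM and 56.9 ± 5.08 with anti-Ly6G (SD, n = 3 each).

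**Figure D1:**
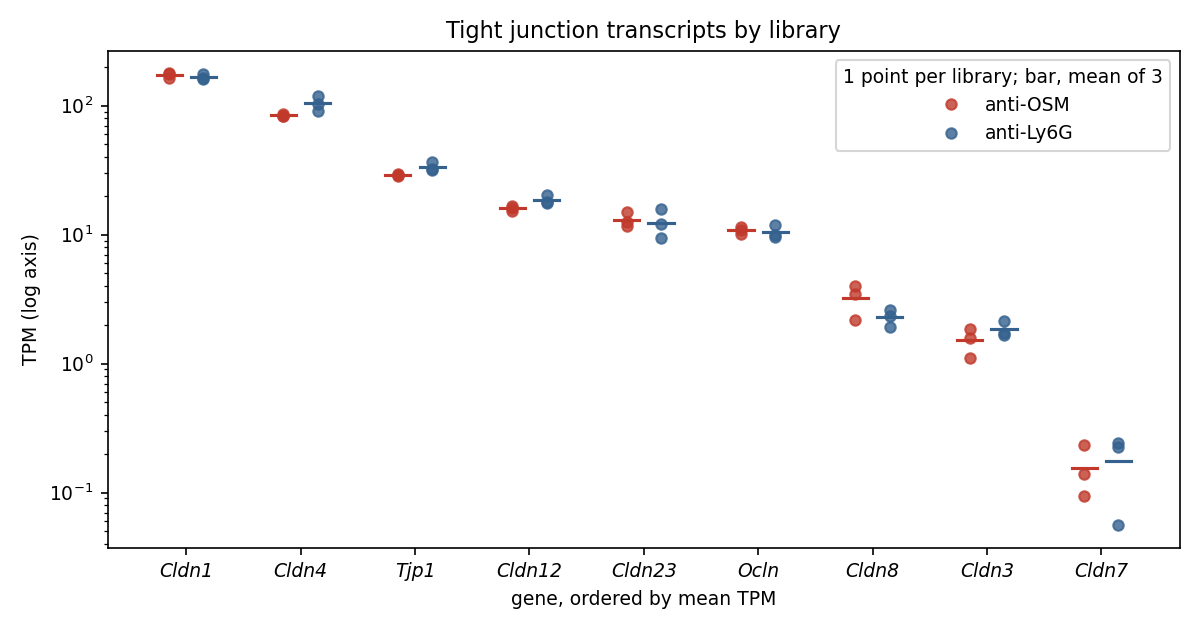
TPM of the 9 genes (log axis) in each library, with anti-OSM points left of anti-Ly6G points and bars at the mean of 3. Cldn1 lay between 159.9 and 178 TPM, Cldn4 between 82.3 and 119, and Cldn7 at no more than 0.242.

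The table lists 33 claudins, of which 25 had a count in at least 1 library and 8 were listed at 0 in all 6. Their summed level was 345 ± 6.38 TPM with anti-OSM and 355 ± 28.3 TPM with anti-Ly6G (SD, n = 3 each; exact permutation test, 2-sided, p = 0.8, where 0.1 is the smallest p that 3 against 3 allows). Cldn1 made up 50.1 ± 1.67% of that sum with anti-OSM and 46.9 ± 1.78% with anti-Ly6G. Cldn4 made up 24.4 ± 0.793% with anti-OSM and 29.3 ± 1.91% with anti-Ly6G. Both together held 74.5 ± 2.27% with anti-OSM and 76.2 ± 0.337% with anti-Ly6G (exact permutation test, 2-sided, p = 0.4). Ear skin of both groups was therefore dominated by the same claudin transcripts. Cldn4 had a smaller mean share of the sum in the anti-OSM libraries, and that difference in share was not tested.

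The ratio of Cldn4 to Cldn1, which does not depend on how libraries are scaled, was 0.501, 0.473 and 0.487 with anti-OSM, while with anti-Ly6G it was 0.649, 0.678 and 0.556. The groups did not overlap in this ratio, which was defined after the values were seen. The exact permutation test gave p = 0.1 (2-sided, n = 3 each), the smallest this design allows. The anti-Ly6G library nearest to the anti-OSM libraries was replicate 3, as it also was along the first principal component of all genes.

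**Figure D2:**
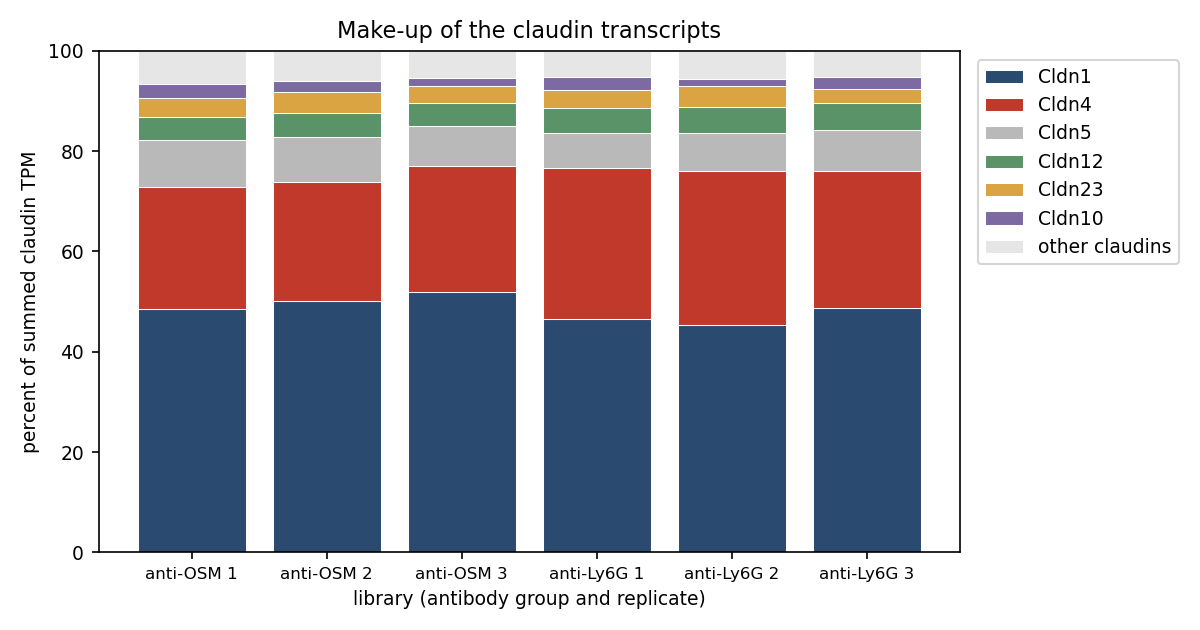
Share of the summed claudin TPM (percent) held by each claudin in the 6 libraries, anti-OSM left and anti-Ly6G right. Cldn1 and Cldn4 filled 72.8% to 77.1% of each bar.

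Of the other 26 claudins, 7 averaged at least 1 TPM in a group. Cldn5, the claudin of blood vessel endothelium, came first at 30.4 TPM with anti-OSM and 26.95 TPM with anti-Ly6G, above Cldn12. Cldn10 averaged 7.76 TPM with anti-OSM and 7.66 TPM with anti-Ly6G. Cldn19, which Schwann cells express, averaged 4.11 TPM with anti-OSM and 4.27 TPM with anti-Ly6G. Cldn2, a pore-forming claudin of leaky epithelia, averaged 3.84 TPM with anti-OSM and 3.70 TPM with anti-Ly6G. Cldn15 (2.05 TPM with anti-OSM, 2.41 TPM with anti-Ly6G), Cldn34c1 (1.61 TPM with anti-OSM, 1.201 TPM with anti-Ly6G) and Cldn11 (1.08 TPM with anti-OSM, 1.06 TPM with anti-Ly6G) were lower still. Cldn34c1 has close copies that can share reads, so its value is uncertain. Of the 10 other claudins tested 0 passed in edgeR, and 1 (Cldn34c1) had an unadjusted p under 0.05.

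The comparison asked how these genes differed between skin of mice given anti-OSM and skin of mice given anti-Ly6G. "Higher" and "lower" give the state with anti-OSM as set against anti-Ly6G, and which group moved cannot be told apart here. None of the 9 genes passed: 8 were tested, 0 were higher and 0 lower at an adjusted p of 0.05 (edgeR's quasi-likelihood test, Benjamini-Hochberg). Of all 19915 genes tested 12.1% passed, 5.81% higher and 6.27% lower. At an unadjusted p of 0.05, 4 of the 8 were past the threshold (Cldn4, Tjp1, Cldn12 and Cldn8), as were 29.0% of all genes. The median log2 fold change of the 8 was -0.06, beside 0.01 over all genes tested. DESeq2 called 1 of them lower (Cldn4) and 0 higher, against 19.4% of all genes, 9.32% higher and 10.1% lower. Fewer cells of a type and less RNA per cell cannot be told apart in these whole-skin samples.

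Cldn4 came nearest to the threshold. Its CPM (reads per 1000000 of the library total after edgeR's TMM scaling) were 71.0, 73.5 and 77.2 with anti-OSM, against 92.9, 99.96 and 77.4 with anti-Ly6G. The groups did not overlap, by a narrow margin between anti-OSM replicate 3 and anti-Ly6G replicate 3. The log2 fold change was -0.29 (SE 0.10, 95% interval -0.50 to -0.07, adjusted p = 0.0881 in edgeR). DESeq2 gave -0.29 (adjusted p = 0.0439). Without anti-Ly6G replicate 3, edgeR gave -0.39 (adjusted p = 0.0125), and of all genes 14.8% were then called, 7.62% higher and 7.14% lower. Without each of the other libraries its adjusted p stayed above 0.05 (0.159 to 0.228).

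Tjp1 and Cldn12 were next, with smaller differences and no overlap between the groups. Tjp1 had 93.2, 98.4 and 100.1 CPM with anti-OSM and 108, 117 and 105 CPM with anti-Ly6G. Its log2 fold change was -0.18 (SE 0.07, 95% interval -0.33 to -0.02, adjusted p = 0.123 in edgeR). Cldn12 had 27.7, 30.5 and 29.7 CPM with anti-OSM and 32.9, 35.7 and 32.0 CPM with anti-Ly6G. Its log2 fold change was -0.19 (SE 0.08, 95% interval -0.37 to -0.02, adjusted p = 0.135 in edgeR). With Cldn4, these were the 3 of 8 tested genes whose groups did not overlap, all lower with anti-OSM, and of all genes tested 35.0% did not overlap, 17.7% higher and 17.3% lower. Neither passed in edgeR without any 1 library or in DESeq2.

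Cldn8 had the widest difference in the other direction, from few reads. It had 207, 273 and 145 reads with anti-OSM and 137, 169 and 167 reads with anti-Ly6G, or 3.90, 4.62 and 2.54 CPM against 2.23, 2.87 and 2.59 CPM. Anti-OSM replicate 3 lay within the anti-Ly6G range, so the groups overlapped. The log2 fold change was 0.52 (SE 0.22, 95% interval 0.01 to 1.03, adjusted p = 0.163 in edgeR). Without anti-OSM replicate 3 it was 0.73 (adjusted p = 0.0670), and without replicate 2 it was 0.33 (adjusted p = 0.429).

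Cldn1, Ocln, Cldn23 and Cldn3 had intervals that included 0. Cldn1 had 254, 278 and 283 CPM with anti-OSM and 256, 264 and 249 CPM with anti-Ly6G. Its log2 fold change was 0.08 (SE 0.07, 95% interval -0.07 to 0.24, adjusted p = 0.468 in edgeR). As a fold this is 1.06, with an interval of 0.950 to 1.18, and the groups overlapped. Ocln had 21.2, 19.95 and 19.6 CPM with anti-OSM and 18.5, 21.3 and 18.6 CPM with anti-Ly6G. The estimate for occludin was a log2 fold change of 0.06 (SE 0.09, 95% interval -0.14 to 0.26). In both genes the groups overlapped.

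Cldn23 varied within both groups. It had 11.04, 13.5 and 10.5 CPM with anti-OSM and 10.998, 13.5 and 8.16 CPM with anti-Ly6G. Its log2 fold change was 0.10 (SE 0.18, 95% interval -0.32 to 0.53). The groups overlapped, and its sign turned without anti-Ly6G replicate 3 (-0.07) or anti-OSM replicate 2 (-0.01). Cldn3 had 51, 68 and 40 reads with anti-OSM and 64, 74 and 67 reads with anti-Ly6G. The groups overlapped, with a log2 fold change of -0.25 (SE 0.23, 95% interval -0.78 to 0.29). Under TMM scaling, for 6 of the 8 tested genes the 95% interval lay within a 1.5-fold change in either direction. The exceptions were the scarce Cldn3 and Cldn8. Scaled to keratinocyte lineage markers, which moved the median of all genes to 0.32, more genes reached beyond it. There the upper limits (log2) of Cldn1 (0.61), Ocln (0.64) and Cldn23 (0.77) also lay past a 1.5-fold change.

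Cldn7 did not pass the filter on low counts. It had 8, 4 and 6 reads with anti-OSM and 10, 3 and 10 reads with anti-Ly6G, close to the floor of 3 counts. Its groups overlapped, and a difference was not detectable at this depth. With no filter its log2 fold change was -0.21 (95% interval -1.75 to 1.33, adjusted p = 0.899 in edgeR).

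**Figure D3:**
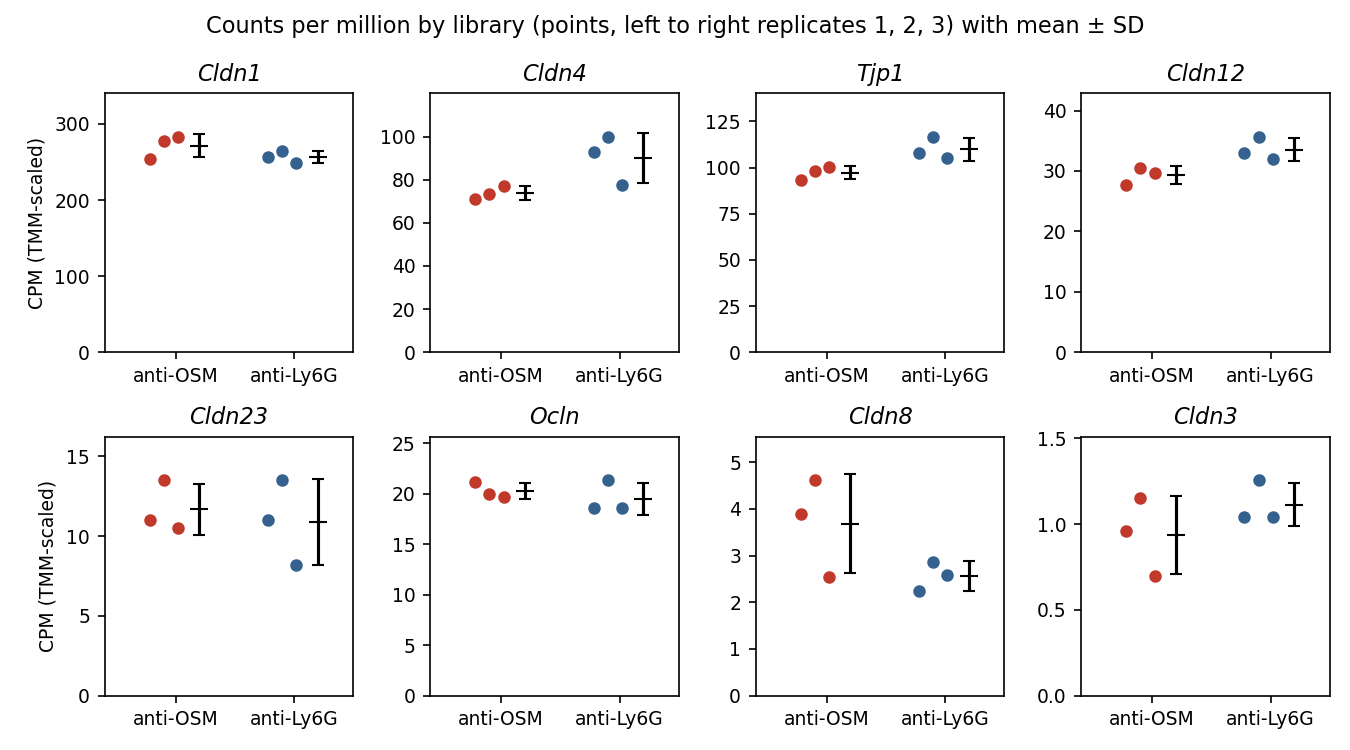
CPM of the 8 tested genes by library (points; vertical axes start at 0) with mean ± SD at the right of each group, anti-OSM left. Cldn4, Tjp1 and Cldn12 did not overlap between the groups, and Cldn1 and Ocln did. Of all genes tested 35.0% did not overlap.

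Markers of keratinocytes, the cells that make epidermal tight junctions, also differed between the groups. Of 11 keratinocyte lineage markers, all detected, 4 were lower and 0 higher with anti-OSM. Their summed level was 15175 to 18344 CPM with anti-OSM and 20754 to 22274 CPM with anti-Ly6G. Suprabasal markers had 0 of 6 called and granular markers, of the layer where tight junctions lie, 1 higher and 1 lower of 6. Of all genes tested 6.27% were lower and 5.81% higher. Fibroblast markers had 3 of 6 higher and leukocyte markers 2 of 6. Langerhans and dendritic markers had 4 of 6 higher and Schwann cell markers 1 of 6. Of 9 endothelial, 5 melanocyte and 3 tested neutrophil markers 0 were called, and of 5 adipocyte markers 1 was lower. Markers of some other skin tissues were lower. Hair follicle markers had 4 of 9 lower (549 to 713 CPM summed with anti-OSM, 1076 to 1520 CPM with anti-Ly6G) and sebaceous gland markers 2 of 6 (2438 to 4325 CPM with anti-OSM, 4712 to 5533 CPM with anti-Ly6G). Most of the sebaceous gland sum was Scd1 (1961.3 to 3568.5 CPM with anti-OSM, 3731.9 to 4460 CPM with anti-Ly6G), which did not pass (adjusted p = 0.126 in edgeR). Skeletal muscle markers had 5 of 6 lower (1886 to 2296 CPM with anti-OSM, 2924 to 3272 CPM with anti-Ly6G) and cartilage markers 4 of 5 tested (196 to 211 CPM with anti-OSM, 303 to 349 CPM with anti-Ly6G). Keratins and other genes of stressed epidermis had 5 of 8 lower, with summed levels of 2356 to 4545 CPM with anti-OSM and 6498 to 9832 CPM with anti-Ly6G.

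Scaling the libraries to the 11 lineage markers in place of TMM moved the median log2 fold change of all genes to 0.32. On that scale Cldn4 stood at 0.03 (95% interval -0.19 to 0.25), Cldn12 at 0.12, Tjp1 at 0.14 and Cldn3 at 0.06, so the sign of each turned. Relative to the shifted median they were at -0.29, -0.20, -0.18 and -0.25. Cldn1 (0.39, adjusted p = 0.0120 in edgeR), Cldn8 (0.83, adjusted p = 0.0153) and Ocln (0.37, adjusted p = 0.0360) passed as higher relative to those markers, and 0 passed as lower. Of all genes 34.8% passed on that scale, 33.0% higher and 1.79% lower. Relative to the shifted median Cldn1 stood at 0.08, Ocln at 0.06 and Cldn8 at 0.51. These values depend on the markers chosen. Under TMM the lineage markers had a median log2 fold change of -0.32, the suprabasal markers 0.03 and the granular markers 0.26. Scaling to suprabasal or granular markers was not tested. Beyond the scaling to lineage markers, the part of keratinocyte content in these differences was not tested.

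**Figure D4:**
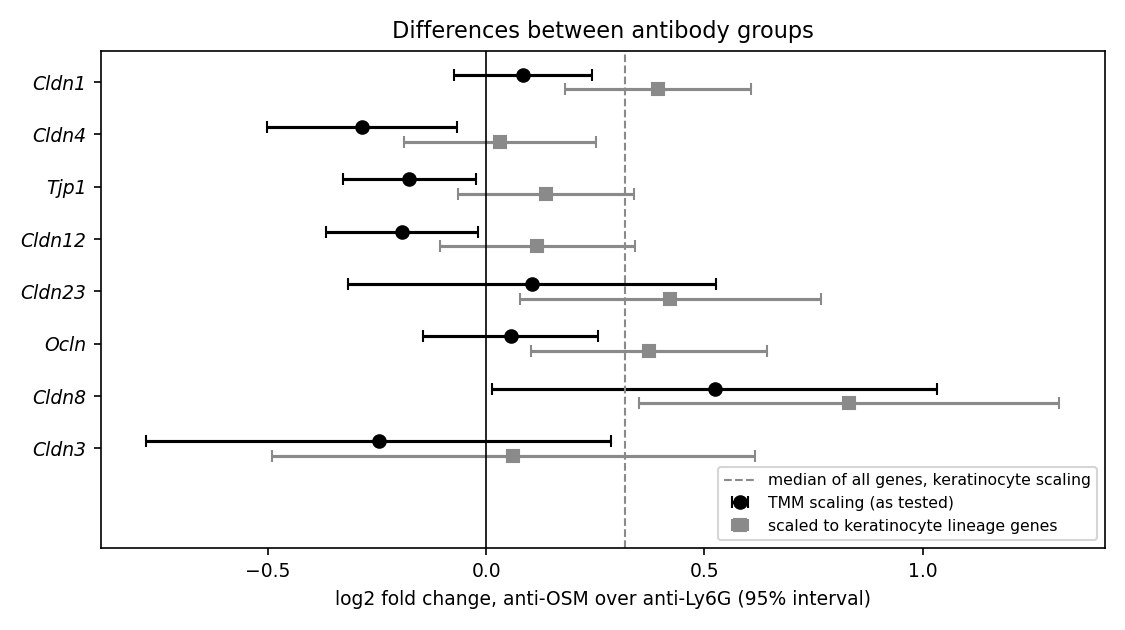
Log2 fold change of anti-OSM over anti-Ly6G with 95% intervals for the 8 tested genes, ordered by TPM, under TMM scaling (circles) and scaled to keratinocyte lineage markers (squares). Under the second scaling the median of all genes moved to 0.32 (dashed line) and Cldn4, Cldn12, Tjp1 and Cldn3 changed sign.

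Other junction genes passed about as often as genes in all. Over 8 lists 84 genes were tested, 3 were higher and 8 lower, a share of 13.1% beside 12.1% of all genes tested (5.81% higher and 6.27% lower). Tricellular and MARVEL proteins, which seal corners where cells meet, had 0 of 5 called, and Marveld2, which encodes tricellulin, had the smallest p with a log2 fold change of 0.18 (adjusted p = 0.332 in edgeR). Regulators of junctional actin and myosin had 0 of 9 called, with Mylk, a myosin light chain kinase gene, at 0.20 (adjusted p = 0.111). The counts above for all 8 lists moved with single libraries: 1 was lower without anti-Ly6G replicate 1 or 2, 2 without each anti-OSM library and 7 without anti-Ly6G replicate 3, while 2 to 4 were higher. Scaled to the lineage markers, 30 were higher and 1 lower, beside 33.0% and 1.79% of all genes. On that scale Jam2, Epcam, Zeb2 and Wnk4 kept their calls and directions, and the other 7 genes called lost theirs, with values given below for each.

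Tight junction plaque and polarity genes had 3 of 23 lower and 0 higher. Amot, which encodes angiomotin, a plaque protein that binds polarity scaffolds, had 24.2, 21.2 and 25.6 CPM with anti-OSM and 31.6, 33.1 and 30.6 CPM with anti-Ly6G. It was lower with anti-OSM (log2 fold change -0.42, SE 0.09, adjusted p = 0.0213 in edgeR). The related gene Amotl1 (-0.39, adjusted p = 0.0446) and the polarity scaffold gene Patj (-0.32, adjusted p = 0.0451) were also lower. All 3 genes had no overlap between the groups, as had 35.0% of all genes tested. This adds little to calls made on the same values. Without single libraries, Patj lost its call in all 6 fits (adjusted p 0.0574 to 0.139). Amotl1 lost its call in all but that without anti-Ly6G replicate 3 (0.0504 to 0.145), and Amot without replicate 1 or 2 of either group (0.0580 to 0.0670). Scaled to the lineage markers, Amot stood at -0.11, Amotl1 at -0.07 and Patj at -0.01, and none of the 3 passed.

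Among claudin partners and proteases, 1 of 7 was higher and 1 lower. Wnk4, a kinase that acts on claudins in the kidney, had 21.7, 19.7 and 21.5 CPM with anti-OSM and 35.9, 42.0 and 37.5 CPM with anti-Ly6G. It was lower with anti-OSM (log2 fold change -0.88, SE 0.09, adjusted p = 0.00222 in edgeR). Epcam, whose product binds claudin 7, had 72.0, 86.8 and 85.5 CPM with anti-OSM and 58.8, 58.6 and 68.7 CPM with anti-Ly6G (log2 fold change 0.39, adjusted p = 0.0340). Both genes parted the groups without overlap, in opposite directions, which adds little to calls made on the same values. Epcam is also a marker of Langerhans cells: 4 of 6 Langerhans and dendritic markers, Epcam among them, were higher, with summed levels of 1266 to 1653 CPM with anti-OSM and 859 to 1116 CPM with anti-Ly6G. Cd207, the Langerhans lectin gene, had a log2 fold change of 0.40 (adjusted p = 0.0173), and its part in the Epcam difference was not tested. Epcam lost its call without replicate 2 of either group, anti-OSM replicate 3 or anti-Ly6G replicate 1 (adjusted p 0.0961 to 0.127), whereas Wnk4 kept it without each library.

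Junctional adhesion molecules, which sit beside claudins in the junction, had 1 of 6 higher. Jam2, which endothelial cells express, had 28.2, 28.2 and 31.1 CPM with anti-OSM and 18.6, 19.1 and 21.4 CPM with anti-Ly6G (log2 fold change 0.57, SE 0.09, adjusted p = 0.00872 in edgeR). It passed without each library in turn. Of 9 endothelial markers 0 were called, with summed levels of 339 to 353 CPM with anti-OSM and 313 to 370 CPM with anti-Ly6G. Fibroblast markers had 3 of 6 higher and summed levels of 7961 to 8209 CPM with anti-OSM and 4596 to 6823 CPM with anti-Ly6G, and the part of any cell type in the Jam2 difference was not tested. F11r, which encodes JAM-A of epithelia, had a log2 fold change of -0.12 (adjusted p = 0.261).

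Transcription factors that set epithelial junction genes had 1 higher and 1 lower of 13. Zeb2, a repressor of epithelial junction genes that myeloid cells also express, had 189, 152 and 179 CPM with anti-OSM and 99.7, 102 and 121 CPM with anti-Ly6G (log2 fold change 0.69, SE 0.10, adjusted p = 0.00806 in edgeR). Snai1, which encodes the repressor Snail, had 5.74, 5.97 and 4.89 CPM with anti-OSM and 7.74, 7.999 and 8.47 CPM with anti-Ly6G (-0.54, adjusted p = 0.0223). The repressor genes thus differed in opposite directions. Leukocyte markers had 2 of 6 higher, with summed levels of 618 to 747 CPM with anti-OSM and 347 to 501 CPM with anti-Ly6G, and their part in the Zeb2 difference was not tested. Zeb2 passed without each library, and Snai1 lost its call without any library but anti-Ly6G replicate 3 (adjusted p 0.0502 to 0.0825). Scaled to the lineage markers, Snai1 stood at -0.24 and did not pass. Grhl2, an activator of claudin genes, stood at -0.30 (adjusted p = 0.0649).

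Adherens junction genes, of the belt below the tight junction, had 3 of 11 lower. Nectin1 had 74.5, 88.97 and 92.9 CPM with anti-OSM and 108, 130.2 and 107.7 CPM with anti-Ly6G (log2 fold change -0.43, adjusted p = 0.0360 in edgeR). The P-cadherin gene Cdh3 (-0.46, adjusted p = 0.0401) and the vinculin gene Vcl (-0.30, adjusted p = 0.0460) also passed. Cdh1, which encodes E-cadherin, did not (-0.23, adjusted p = 0.179). Nectin1 lost its call without any library but anti-Ly6G replicate 3 (adjusted p 0.0656 to 0.107), Cdh3 without any but that and anti-OSM replicate 2 (0.0993 to 0.128), and Vcl without any but anti-OSM replicate 1 (0.0693 to 0.157). Scaled to the lineage markers, Cdh3 stood at -0.16, Nectin1 at -0.12 and Vcl at 0.02, and none of the 3 passed. Cdh1 is itself among those markers, so a gene of this list enters that scaling. The part of the hair follicle, muscle, cartilage and sebaceous gland in the lower junction genes was not tested.

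**Figure D5:**
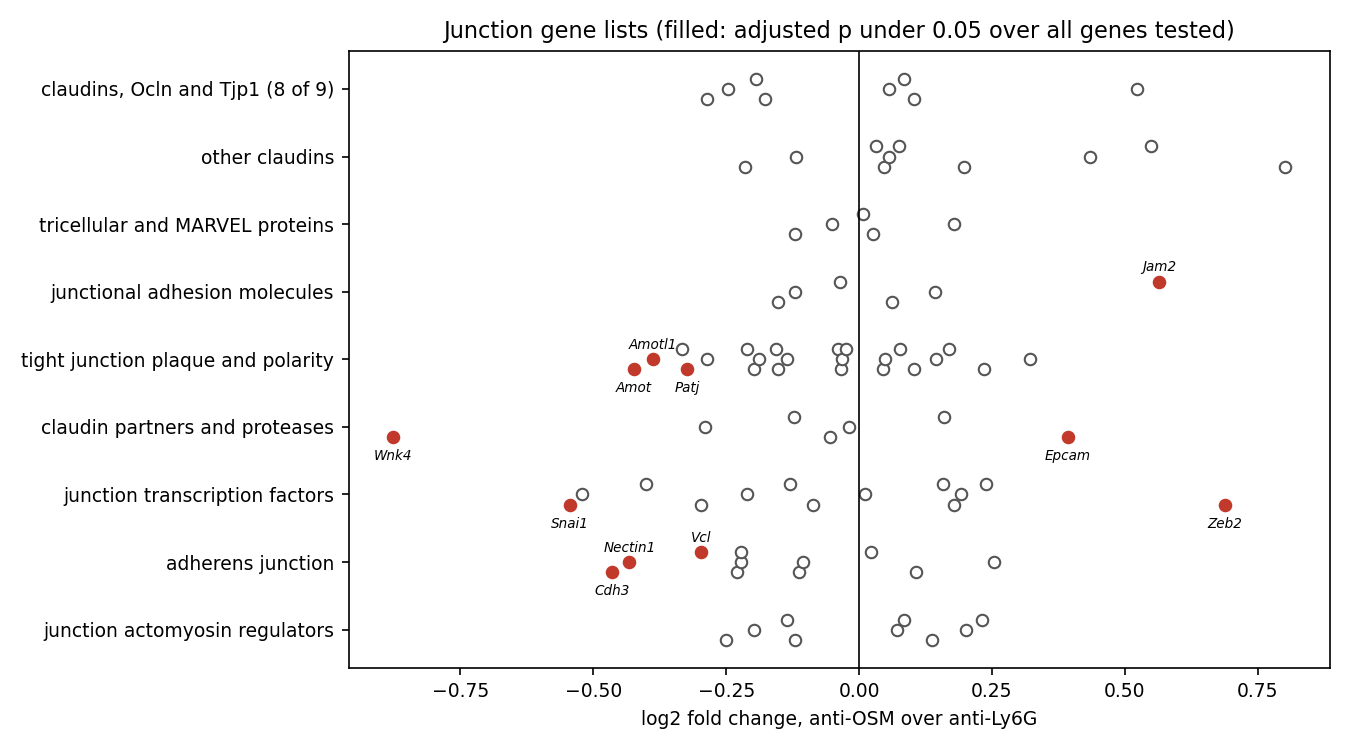
Log2 fold change of anti-OSM over anti-Ly6G for tested genes of the 9 and of each junction list (horizontal axis; vertical scatter within a row has no meaning). Filled points passed at an adjusted p of 0.05 over all genes: 0 of the 8 tested in the top row, and 11 in the rows beneath it. Scaled to keratinocyte lineage markers, Vcl changed sign.

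Genes whose profile over the 6 libraries lay nearest to that of each gene were found among 10857 genes of at least 10 CPM. The measure was the root mean square distance between log2(CPM + 0.5) profiles, each centred on its own mean. Tjp1 had the closest neighbour, Asb7, at 0.00623, followed by Thoc6 (0.0157) and Sugp1 (0.0185). Cldn4 lay nearest to Thop1 (0.0152), Mfsd2a (0.0330) and Gna15 (0.0356). Cldn12 lay nearest to Gatad2a (0.0120), Ppm1g (0.0122) and Prkci (0.0160), the last of which encodes an atypical protein kinase C of the junctional polarity complex. Cldn1 lay nearest to Csnk2b (0.0169), Anks3 (0.0198) and Arrdc2 (0.0214), and Ocln to Ranbp2 (0.0159), Uevld (0.0181) and Tusc2 (0.0191).

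Cldn23, Cldn3 and Cldn8 had no neighbour as close. Cldn3 (0.70 to 1.26 CPM) and Cldn8 (2.23 to 4.62 CPM) lay below the 10 CPM asked of the compared genes. Counting error and the offset of 0.5 therefore weigh more in their distances. Cldn23 lay nearest to Cyp3a13 (0.0688), Tmem177 (0.0799) and Krt10 (0.0877), the keratin gene of differentiating epidermis. Cldn3 lay nearest to Irx1 (0.0504), Dsg2 (0.0609), a desmosomal cadherin gene, and Ttyh2 (0.0610). Cldn8 lay nearest to Adcyap1r1 (0.117), Thsd7a (0.124) and Sept3 (0.148). With 6 libraries and 10857 genes some close profiles arise whatever the genes do, and these distances are a description.

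Total counts were 52163179 to 59063578 in the anti-OSM libraries and 59381146 to 64122588 in the anti-Ly6G libraries. A floor of 3 counts corresponded to 0.0508 to 0.0575 CPM with anti-OSM and 0.0468 to 0.0505 CPM with anti-Ly6G. Of the defining markers of the labelled tissue, ear skin, the basal keratin gene Krt14 stood at 5586 to 7040 TPM with anti-OSM and 9125 to 10039 TPM with anti-Ly6G. The gene Ly6g had too few reads to compare between the groups. Of the 9 genes, Cldn3 overlaps another annotated gene, Wbscr25, which had 11 counts over the 6 libraries, and Ocln overlaps a gene model with 0 counts.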

How the data were processed

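Gene-level values of 6 ear skin libraries were used, 3 anti-OSM and 3 anti-Ly6G, grouped by their titles. Per the file headers, the deposited table holds FPKM and TPM values and whole-number read counts for every gene in each library. The TPM values were deposited by the authors and summed to 1000000 in each library, and here they set levels between genes. The FPKM values deposited by the authors were used only to recompute claudin shares. Tools listed in the submitters' processing notes, whose roles are not given, are HISAT2 2.1.0, StringTie 2.1.3b, Trimmomatic 0.38, SAMtools 1.9, bcl2fastq 2.20.0 and edgeR 3.40.2, and mm10 is among the builds. The counting rule and its use of strand were not stated, so overlapping genes can share counts.

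Counts were tested with edgeR 4.0.16 in R 4.3.3: filterByExpr, TMM scaling, robust quasi-likelihood F-tests (2-sided), no covariate, and Benjamini-Hochberg adjustment over all 19915 genes tested with a threshold of 0.05. Each log2 fold change is anti-OSM over anti-Ly6G, with its standard error derived from the F statistic. The procedure was tested on simulated data. The 9 genes, the lists and the tests were chosen with earlier results of these data known. Named genes are the 9, up to 4 called genes per junction list and direction, a list's smallest p where none was called, other claudins of at least 1 TPM, and the 3 nearest profiles; F11r, Grhl2, Cdh1, Cd207, Krt14 and Ly6g were added as reference points after their values were seen. Alternatives were relative log expression scaling, DESeq2 1.42.0, no filter, a non-robust fit, scaling to keratinocyte lineage markers, a replicate block and leaving out each library. The labels name no animal for a replicate, so the spread behind each p-value may be technical. No pair of libraries within a group was a duplicate (chi-square per gene of at least 26.2). Pairs across the groups were not checked. 1 gene of the plaque list is not reported here. Floors cover counting error only. Coordinates and promoters are from RefSeq, GRCm38.p6, the assembly that mm10 names.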

Additional observations from a re-analysis of the deposited data

How the results depend on the processing

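That none of the 8 tested genes passed held in edgeR with relative log expression scaling, no filter on low counts, a non-robust fit and a replicate block. DESeq2 called 1 lower (Cldn4), scaling to keratinocyte lineage markers called 3 higher, and leaving out a library gave 0 to 1 lower and 0 higher. That scaling gave 6569 genes higher and 356 lower over all genes, beside 1157 and 1249 with TMM, and 30 higher and 1 lower in the other junction lists. It turned the sign of Cldn3 (0.062), Cldn4 (0.031), Cldn12 (0.12), Tjp1 (0.14) and Vcl (0.020), since the median of all genes moved to 0.32. DESeq2 called 14 other junction genes lower. Leaving out each library gave 240 to 1545 genes higher and 420 to 1447 lower over all genes, 1 to 7 other junction genes lower, and a log2 fold change of -0.071 to 0.29 for Cldn23. Of the 11 other junction genes called, 4 remained called in the same direction under keratinocyte lineage scaling, 9 with the replicate block and 3 to 9 without a library.

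Whether replicate numbers pair the samples could not be settled. Same-numbered libraries had deviations correlated at 0.01, 0.04 and 0.12, and libraries with different numbers at -0.12 to 0.08. Anti-OSM replicate 1 correlated best with anti-Ly6G replicate 2 (0.08), while anti-OSM replicates 2 and 3 correlated best with their own numbers. With the replicate block 1326 genes were higher and 1275 lower, and 0 of the 8 tested genes passed. Claudin shares from FPKM equal those from TPM by construction, since within a library the measures differ by a constant factor. Their match is therefore no check of the shares. Depth limits Cldn7, at 3 to 10 reads a library. With 3 libraries a group, an exact test of a single ratio cannot go below 0.1.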

Other observations

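Claudins outside the 9 genes that lay below 1 TPM were mostly too scarce to test. Cldn20 had 0.301, 0.101 and 0.0876 CPM with anti-OSM and 0, 0.0849 and 0.0621 CPM with anti-Ly6G, and it did not pass the filter on low counts. Cldn34c2 averaged 0.948 TPM with anti-OSM and 0.705 TPM with anti-Ly6G, from 20, 25 and 25 reads against 16, 17 and 19 reads. Its groups did not overlap in CPM, as in 35.0% of all genes tested, 17.7% higher and 17.3% lower. The log2 fold change of Cldn34c2 was 0.55 (adjusted p = 0.228 in edgeR). This was near that of its close copy Cldn34c1 (0.43, adjusted p = 0.112), and reads can be shared between them. Cldn20 and Cldn34c2 were named after their values were seen.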
